A study of Mus musculus with 6 samples.

Results

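The haemoglobin and red cell genes described here are 7 of the 28627 genes in the deposited table, taken by symbol: the adult alpha globins Hba-a1 and Hba-a2, the adult beta globins Hbb-bs and Hbb-bt, the erythroid haem synthesis enzyme Alas2, the red cell anion exchanger Slc4a1 (band 3) and the enzyme Bpgm. All 7 were listed, and 6 passed the filter on low values (at least about 10 reads in enough libraries). Slc4a1 did not pass and is described by its reads. Poly-A RNA of mouse retina was sequenced on postnatal day 15 of oxygen-induced retinopathy, a model in which pups are kept in high oxygen and then returned to room air. There were 3 libraries from Emcn+/+ pups and 3 from Emcn-/- littermates, which lack endomucin, a sialomucin of the endothelial surface, and both genotypes went through the model. The labels give neither the strain, nor how the allele was made, nor whether each library is 1 animal, so p-values measure the spread between these libraries, which may be technical.

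Adult haemoglobin is built from a pair of alpha and a pair of beta chains, each holding a haem. Maturing red cells make both chains and haem in bulk under the transcription factors GATA1 and KLF1. A reticulocyte, which no longer has a nucleus, enters the blood and carries leftover globin messenger RNA into the vessels for a time. Globin reads in a tissue that is not flushed are therefore commonly used as a reading of the blood it holds, although globin transcripts have also been described in neurons, glia and pigment epithelium.

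The globin genes come in near-identical pairs, and the sequences show how far their reads can be separated. Hba-a1 (ENSMUSG00000069919, GRCm38 chr11:32283511-32284465, plus strand) and Hba-a2 (ENSMUSG00000069917, chr11:32296489-32297298, plus strand) lie on the same chromosome, with the minor globin gene Hbq1b between them. Their coding sequences, 426 bases without the stop codon, differ by 1 base, C381T, counted from the first base of the start codon with the Hba-a1 base first. Hbb-bs (ENSMUSG00000052305, chr7:103826534-103828096, minus strand) and Hbb-bt (ENSMUSG00000073940, chr7:103812524-103813996, minus strand) also differ by 1 base in 441, C417T. The 60 coding bases around each difference, from the GENCODE M21 transcripts, are given below with the differing base in capitals.
Hba-a1, bases 351 to 410: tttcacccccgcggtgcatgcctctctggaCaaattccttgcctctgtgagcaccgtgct
Hba-a2, bases 351 to 410: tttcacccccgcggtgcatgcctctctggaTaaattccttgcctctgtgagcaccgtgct
Hbb-bs, bases 382 to 441: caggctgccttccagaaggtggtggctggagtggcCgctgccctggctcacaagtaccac
Hbb-bt, bases 382 to 441: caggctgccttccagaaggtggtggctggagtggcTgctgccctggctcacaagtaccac

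Of all stretches of 100 bases in the longest coding transcript, 43.5% in Hba-a1, 25.5% in Hba-a2, 37.4% in Hbb-bs and 45.2% in Hbb-bt occurred in no other gene's transcripts. The remainder of the Hba-a1 stretches occurred in Hba-a2 and the reverse, and the beta genes shared theirs with each other. The GENCODE Hba-a1 transcript, 699 bases against 554 for Hba-a2, begins before the RefSeq start used for the promoters below. Those upstream bases are the same in both genes, so the Hba-a1 share may overstate how well its reads can be told apart. In Alas2, Slc4a1 and Bpgm 100% of the stretches were their own. The labels do not say how reads that fit both copies were counted, so the split within each globin pair is uncertain, and the sum of a pair is the firmer reading.

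The promoters of the 4 globins and Alas2 are shown as background, and their part in the profiles across the libraries was not tested. The 110 bases before each RefSeq start (GRCm38.p6) follow, with 4 motifs in capitals on either strand. The TATA box core was searched as TATAA. The box that binds NF-Y was searched as CCAAT. The core of KLF-type sites was searched as CACCC. The core of sites for GATA factors was searched as GATAA. Where capitals run together, matches overlap or touch.
Hba-a1, chr11:32283562-32283671, plus strand: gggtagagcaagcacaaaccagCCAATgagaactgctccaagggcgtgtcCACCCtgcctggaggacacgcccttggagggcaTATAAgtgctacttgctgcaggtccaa
Hba-a2, chr11:32296382-32296491, plus strand: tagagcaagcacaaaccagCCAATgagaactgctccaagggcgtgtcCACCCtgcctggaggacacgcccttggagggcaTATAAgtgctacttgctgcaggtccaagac
Hbb-bs, chr7:103827929-103828038, minus strand: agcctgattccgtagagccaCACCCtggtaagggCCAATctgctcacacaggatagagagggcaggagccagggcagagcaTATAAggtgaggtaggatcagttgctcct
Hbb-bt, chr7:103813924-103814033, minus strand: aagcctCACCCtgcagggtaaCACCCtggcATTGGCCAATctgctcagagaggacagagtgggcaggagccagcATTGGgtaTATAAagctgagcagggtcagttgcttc
Alas2, chrX:150547307-150547416, plus strand: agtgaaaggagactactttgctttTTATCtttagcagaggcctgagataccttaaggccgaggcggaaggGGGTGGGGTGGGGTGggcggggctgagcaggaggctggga

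The alpha promoters were identical over the 247 bases they could be compared on, and the beta promoters matched at 69.3% of aligned positions. Each of the 4 globin promoters held TATAA 27 to 30 bases before the start, the CCAAT box and the KLF core further up, and the GATA core between 182 and 209 bases before it. All 4 motifs were found within 250 bases in 0.968% of the 32851 promoters of the RefSeq table. Singly, the TATA core was in 22.8%, the CCAAT box in 33.8%, the KLF core in 52.0% and the GATA core in 22.6% of them. Within 250 bases Alas2 held 3 of the motifs, all but the CCAAT box, and Bpgm held the CCAAT box alone. These matches are letters in a window, not sites shown to be used.

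The libraries held 14865868 to 17087621 reads, and values are normalised reads, for which 1 read was worth 0.924 to 1.09. A count of 0 allows up to 3 reads, or 2.77 to 3.28 normalised reads, counting error only. Emcn itself stood at 80.6 to 100.5 in the 3 Emcn+/+ libraries against 1.04 to 4.62 in the Emcn-/- libraries. All 12 of the 12 rod photoreceptor genes on a marker list for the neural retina were listed and passed the filter on low values. Emcn+/+ replicate 3 stood apart. It was the only library with abundant Xist (19265 normalised reads, at most 4.63 elsewhere). It had no reads of the Y-linked Ddx3y, which was at 1143 to 1413 in the others. By both genes it reads as female and the others as male. Its interferon-response transcript Ube2l6 was at 285 against 42.6 to 92.4. The sample titles fall into 2 number series, 144 to 148 (4 libraries) and 186 and 188 (Emcn-/- replicate 3 and Emcn+/+ replicate 3). The labels do not say what the numbers stand for. Sex was thus uneven between the genotypes and between the number series, and its part was not tested.

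The genotype comparison sets retinas without endomucin against those with it. In such bulk samples, fewer red cells and less RNA per cell cannot be told apart. Hba-a1, the alpha globin with more reads, stood at 326, 194 and 543 normalised reads in Emcn+/+ replicates 1 to 3 and at 156, 234 and 523 in Emcn-/- replicates 1 to 3. Hba-a2 had 69.5, 50.05 and 156 against 56.5, 56.0 and 132. In both alpha genes the highest library of each genotype was replicate 3, and the genotypes overlapped.

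Hbb-bs, the main beta globin, had 470, 298 and 1432 normalised reads in the Emcn+/+ libraries against 463, 562 and 1535 in the Emcn-/- libraries. Hbb-bt had 43.6, 19.5 and 110.3 against 22.4, 31.1 and 96.1. The same library, replicate 3, was highest within each genotype for both beta genes, and the genotypes again overlapped.

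Alas2, which makes the first haem precursor in red cells, stood at 44.6, 31.5 and 34.9 in Emcn+/+ against 25.3, 24.9 and 65.6 in Emcn-/-. Its highest value was in Emcn-/- replicate 3, but Emcn+/+ replicate 3, rich in globin reads, lay between the other Emcn+/+ libraries. Alas2 is X-linked and that Emcn+/+ library reads as female, and whether sex plays a part was not tested. Slc4a1, which exchanges bicarbonate for chloride across the red cell membrane, had 2, 2 and 0 reads in Emcn+/+ and 3, 0 and 1 in Emcn-/-. That is 4 reads in each genotype, a ratio of 0.963 after scaling with a 95% exact interval of 0.179 to 5.17, so no difference could be detected at this depth. Bpgm, which makes the 2,3-bisphosphoglycerate that loosens oxygen from haemoglobin, had 1279, 1296 and 1505 against 1306, 1366 and 1452, and it varied by 1.18-fold between the lowest and highest library.

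**Figure D1:**
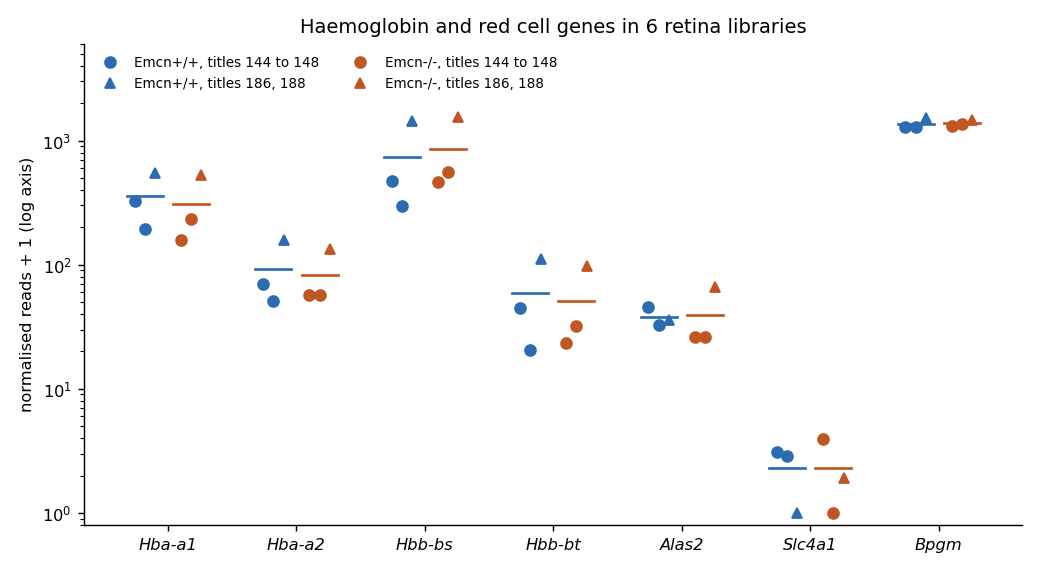
Normalised reads plus 1 (log axis) of the 7 genes in each library, coloured by genotype, with triangles for the libraries titled 186 and 188, circles for 144 to 148, and bars for the genotype means. The triangles lie above all circles for the 4 globins and Bpgm, while the colours overlap for all 7 genes.

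No member passed the genotype test. With limma over 16681 genes, 0 of the 6 tested members had an adjusted p under 0.05, where 0.00599% of all genes (1 gene, Emcn) did, and 0 members had an unadjusted p under 0.05. With edgeR on the recovered reads 0 members passed, against 0.00599% of all genes. With DESeq2 0 passed, against 1.18% of genes (0.215% higher and 0.961% lower), and DESeq2 gave no adjusted p for Hba-a1, Hba-a2, Hbb-bt and Alas2. The log2 fold changes (Emcn-/- minus Emcn+/+, on log2 of value plus 1, ± SE) were -0.28 ± 0.46 for Hba-a1 (limma adjusted p = 0.891), -0.12 ± 0.45 for Hba-a2 (0.955), 0.33 ± 0.58 for Hbb-bs (0.902) and -0.16 ± 0.66 for Hbb-bt (0.963). Alas2 was at -0.08 ± 0.38 (0.969) and Bpgm at 0.02 ± 0.08 (0.963). The alpha genes and Hbb-bs had estimates of opposite sign, all well inside their errors. None of the 6 separated the genotypes without overlap, which 14.4% of all tested genes did.

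The 95% intervals show how much these libraries could resolve. For Bpgm the interval was narrow, from -0.16 to 0.19. For the globins the intervals were wide, from -1.31 to 0.76 for Hba-a1 and from -0.99 to 1.65 for Hbb-bs, and each included 0. With the title-number series as a term the estimates were the same and the SE shrank to between 0.16 and 0.30 for the 4 globins. Hbb-bs then had an interval from -0.02 to 0.68 (limma adjusted p = 0.426) and Hba-a1 one from -0.74 to 0.18 (0.606). In that fit too 0 members passed, against 0.00599% of all genes.

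Summed over the 4 genes, globin reads were 0.00576%, 0.00374% and 0.0138% of all reads in Emcn+/+ against 0.00436%, 0.00557% and 0.0145% in Emcn-/-. The genotype means, 0.00777% ± 0.00532 and 0.00814% ± 0.00552 (SD, n = 3 each), lay well within the spread between libraries. The exact 95% intervals of the lowest and highest shares, 0.00344% to 0.00405% and 0.0139% to 0.0151% of reads, were far apart, so the spread between libraries exceeded counting error. Within the libraries titled 144 to 148 the globin sum was 1.08 times as high in Emcn-/- as in Emcn+/+, and between 186 and 188, with 1 library each, it was 1.02 times as high.

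**Figure D2:**
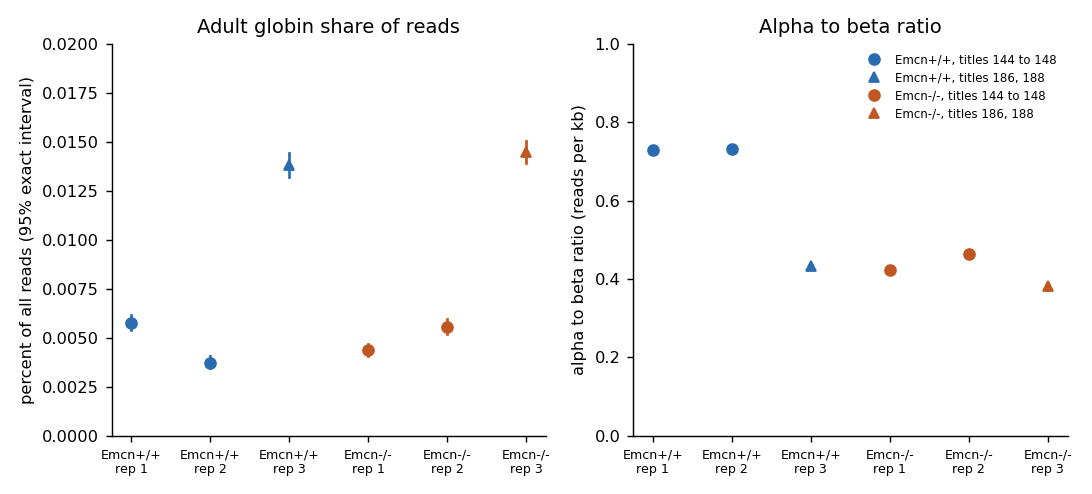
Left, reads of the 4 adult globins as a percentage of all reads in each library, with exact 95% intervals that cover counting error only. Right, the alpha to beta ratio in reads per kb: the 2 libraries titled 186 and 188 (triangles) have the highest shares, 0.0145% and 0.0138%, and Emcn+/+ replicates 1 and 2 have the highest ratios, 0.730 and 0.733.

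The 4 globins differed between the title-number series instead. This contrast was examined after the values had been seen, with the globins already known to follow it. Its p-values and shares for the members therefore describe the pattern and are not independent evidence for it. It compares 2 libraries, 1 of each genotype, with 4 libraries, 2 of each, and genotype is a term in the fit. All 4 globins were higher in the libraries titled 186 and 188: by 1.28 ± 0.22 (log2, SE) for Hba-a1 (limma adjusted p = 0.0385), 1.30 ± 0.19 for Hba-a2 (0.0310), 1.76 ± 0.17 for Hbb-bs (0.0117) and 1.85 ± 0.32 for Hbb-bt (0.0404). These are 2.43-, 2.47-, 3.39- and 3.61-fold. Of the 6 tested members 4 passed upward and 0 downward, where 0.528% of all tested genes passed upward and 0.24% downward. The copies of a pair share stretches, so these are not 4 independent readings. Summed by pair, alpha stood at 655 and 699 against 212 to 395, and beta at 1542 and 1631 against 317 to 593. The pair sums were not tested.

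The rise was seen in both genotypes. Hbb-bs was 3.73 times as high in Emcn+/+ and 3.00 times as high in Emcn-/-, and Hbb-bt 3.50 and 3.59 times. Hba-a1 was 2.09 and 2.68 times as high and Hba-a2 2.61 and 2.35 times. edgeR gave adjusted p from 0.00457 to 0.0343 for the 4 genes, where it called 0.923% of all genes (0.677% higher, 0.246% lower). DESeq2 gave 4.00e-08 to 0.0171, where it called 3.04% (1.77% higher, 1.27% lower). The calls depended on single libraries. Without Emcn+/+ replicate 3, the 1 library with abundant Xist and the highest Ube2l6, the globin estimates were 1.22 to 1.82 and none passed (limma adjusted p = 0.250 to 0.585). Without Emcn-/- replicate 3 they were 1.11 to 1.93, and Hbb-bs (0.00469) and Hba-a2 (0.0468) passed. Without Emcn+/+ replicate 2 or without Emcn-/- replicate 1, Hbb-bs alone passed (0.00201 and 0.0430).

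Alas2 and Bpgm did not pass this test. Alas2 had 0.63 ± 0.34 (limma adjusted p = 0.403), and its estimate was -0.10 without Emcn-/- replicate 3. Bpgm had 0.17 ± 0.05 (0.153), and both libraries titled 186 and 188 were above the other 4, by 1.17- and 1.09-fold within Emcn+/+ and Emcn-/-. Without overlap, 5 of the 6 tested members were higher in the libraries titled 186 and 188, against 12.8% of all tested genes.

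**Figure D3:**
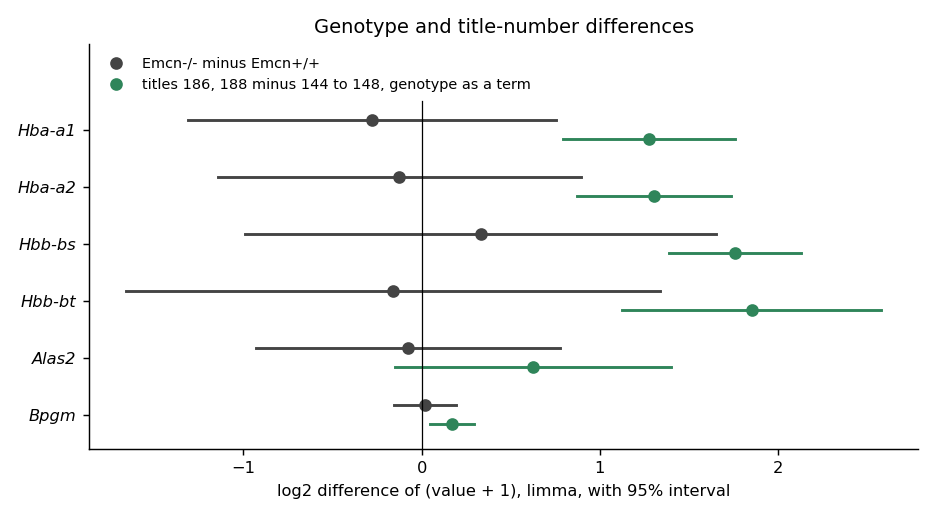
Log2 differences with 95% intervals for the 6 tested members, for genotype (grey) and for the libraries titled 186 and 188 against 144 to 148 (green). Every genotype interval spans 0, while those of the 4 globins for the title numbers lie above 0, with the lowest bound at 0.79.

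Levels between the members were compared per length of the longest coding transcript. For Hba-a1 that length, 699 bases, includes bases before its RefSeq start, which lowers its value per kb and the alpha to beta ratio below. Hbb-bs had 1263 normalised reads per kb on average (474 to 2444 over libraries), Bpgm 616 (576 to 678), Hba-a1 471 (223 to 776), Hba-a2 157 (90.3 to 282), Hbb-bt 76.6 (27.7 to 157), Alas2 18.6 (12.2 to 32.2) and Slc4a1 0.285 (0 to 0.643). Neighbours in this order overlapped in range from Hbb-bs down to Alas2, and Slc4a1 lay below all others. Within every single library, however, the order Hbb-bs, Hba-a1, Hba-a2, Hbb-bt, Alas2 was the same, and only the place of Bpgm changed. Hba-a1 held 73.4% to 82.4% of the alpha reads in every library, and Hbb-bs held 91.5% to 95.4% of the beta reads. The Hbb-bs share was 92.7% ± 1.18 in Emcn+/+ and 94.7% ± 0.64 in Emcn-/- (SD, n = 3), with the lowest Emcn-/- library at 94.1% and the highest Emcn+/+ library at 93.9%, and shares within a near-identical pair depend on how shared reads were counted.

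The balance of alpha to beta differed among libraries. The ratio of alpha to beta reads per kb was 0.730, 0.733 and 0.434 in Emcn+/+ and 0.423, 0.465 and 0.382 in Emcn-/-. Emcn+/+ replicates 1 and 2 stood above the other 4 libraries, and the genotypes overlapped through Emcn+/+ replicate 3. Normalised globin reads for each Alas2 read came to 20.4, 17.8 and 64.1 in Emcn+/+ against 27.5, 35.5 and 34.8 in Emcn-/-, highest in Emcn+/+ replicate 3.

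Several other transcripts of maturing red cells had few reads. Epb42, which anchors band 3 to the red cell skeleton, had 14 reads over the Emcn+/+ libraries and 4 over the Emcn-/- libraries, a scaled ratio of 0.275 (exact interval 0.0659 to 0.876, counting error only), with 10 of its reads in Emcn+/+ replicate 1. Gata1, the master regulator of red cell genes, had 5 reads in Emcn+/+ and 0 in Emcn-/-. Klf1, the activator of adult beta globin, had 4, 5 and 4 reads in Emcn+/+ and 8, 9 and 9 in Emcn-/-, a ratio of 1.93 (0.954 to 4.08). None of these 3 passed the filter on low values. Of the embryonic and minor globins and the alpha chain chaperone, the table listed Hbq1a (0 reads in Emcn+/+, 5 in Emcn-/-) and Hbq1b (3 and 1). Hbb-bh1, Hbb-y, Hba-x and Ahsp are not listed in it.

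Other genes of red cell biology were read from 8 lists, with 85 genes, of which 74 were listed and 57 tested. In the genotype test 37 had positive and 20 negative log2 fold changes, with a median of 0.06 beside 0.01 over all tested genes, and 0 passed. The haem synthesis enzymes, which every cell uses, were all positive (10 of 10, median 0.13). Alad, the second enzyme of the pathway, averaged 219 ± 18.5 normalised reads in the wild type and 270 ± 6.48 in Emcn-/- (SD, n = 3; log2 0.31 ± 0.10, limma adjusted p = 0.522), and Urod, the most abundant by mean, had 0.11 ± 0.08 (0.720). Of the 12 rod photoreceptor genes, all 12 were positive too, with a median of 0.10, and whether the share of rods plays a part was not tested.

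The red cell membrane and skeleton list had 4 positive and 7 negative of 11 tested (median -0.05). The smallest p there was that of the ankyrin gene Ank1 (-0.23 ± 0.11, limma adjusted p = 0.637), while its most abundant member Epb41 was at -0.05 ± 0.05 (0.815). Several of these genes, Epb41, Sptb and Add2 among them, are also expressed in neurons. Red cell enzymes had 6 positive and 1 negative of 7 (median 0.10), with catalase, Cat, at 0.16 ± 0.07 (0.599). Erythroid regulators had 4 and 2 of 6 (0.06), with the erythropoietin receptor Epor at 0.50 ± 0.34 (0.713), and late reticulocyte genes 5 and 3 of 8 (0.01), with the mitophagy receptor Bnip3l at 0.23 ± 0.07 (0.504). Iron uptake and storage had 5 and 3 of 8 (0.01). There the transferrin receptor Tfrc was at 0.22 ± 0.16 (0.734) and the ferritin heavy chain Fth1 at 0.16 ± 0.10 (0.696).

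Genes that clear haem and haemoglobin had 3 positive and 4 negative of 7 tested in the genotype comparison (median -0.11), and the median was 0.10 without Emcn+/+ replicate 3. Slc48a1, a haem transporter, had 0.18 ± 0.05 (limma adjusted p = 0.473) and Lrp1, a receptor for haem bound to haemopexin, -0.30 ± 0.09 (0.499). Hmox1, the stress-induced enzyme that breaks haem open, stood at 132, 203 and 929 in Emcn+/+ against 121, 182 and 342 in Emcn-/- (log2 -0.57 ± 0.65, limma adjusted p = 0.829). Like the globins it was highest in replicate 3 of each genotype.

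Against the title numbers, Hmox1 was the 1 gene of the 57 that passed with limma, at 1.85 ± 0.29 (limma adjusted p = 0.0333), where 0.767% of all tested genes passed in either direction. Its estimate was 1.20 without Emcn+/+ replicate 3 (0.546), and the call was also lost without Emcn+/+ replicate 2 (0.0945) or Emcn-/- replicate 1 (0.0999). The 57 genes had 30 positive and 27 negative values, with a median of 0.01 beside 0.00 over all tested genes. By adjusted p, next came the water channel gene Aqp1 (0.42 ± 0.08, 0.0503), the ferritin light chain gene Ftl1 (0.43 ± 0.09, 0.0570) and the mitochondrial iron importer gene Slc25a37 (0.53 ± 0.12, 0.0741), named after their values were seen. Ube2l6, which was at 285 in Emcn+/+ replicate 3, had 1.48 ± 0.39 (0.0971). The transferrin receptor gene Tfrc went the other way, at -0.39 ± 0.10 (limma adjusted p = 0.106). More of these genes passed with the count models. DESeq2, which called 3.04% of all genes, passed Hmox1 (adjusted p = 0.00561), Aqp1 (0.000294), Ftl1 (0.00259), Slc25a37 (0.00947) and, downward, Tfrc (0.00871). With edgeR, which called 0.923%, Hmox1 (adjusted p = 0.0250) and Aqp1 (0.0495) passed. Aqp1 and the ferritin genes are also expressed outside red cells.

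**Figure D4:**
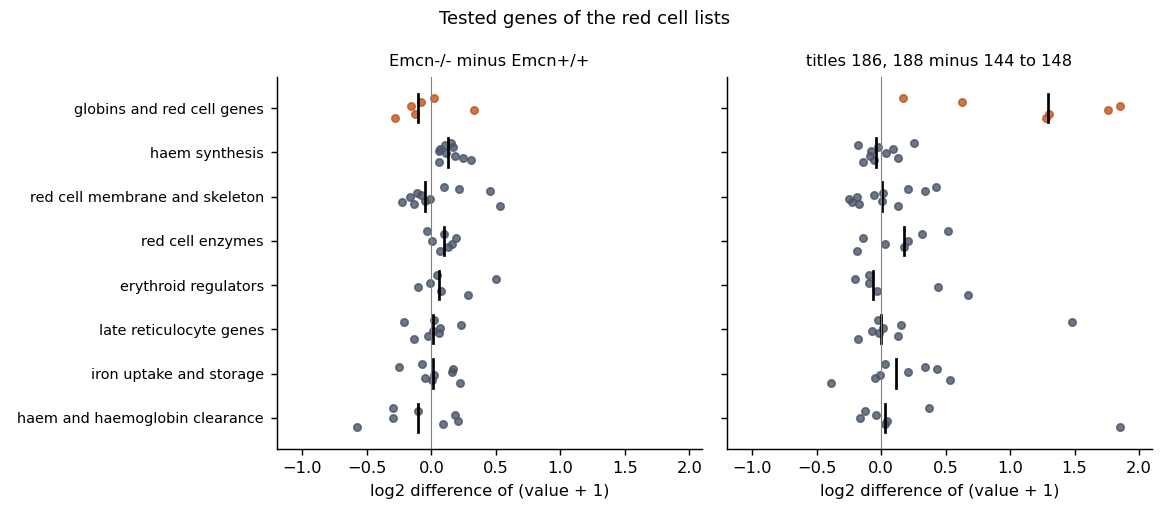
Log2 differences of the tested members (orange) and of 7 lists with tested genes (grey), 1 point a gene, with the median as a bar, for genotype (left) and for the libraries titled 186 and 188 against 144 to 148 (right). On the right the globins reach 1.28 to 1.85, and the members Alas2 and Bpgm stand at 0.63 and 0.17. The list medians stay between -0.06 and 0.18, but single listed genes reach as high, Hmox1 at 1.85 and Ube2l6 at 1.48.

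Markers of other cells of the blood were scarce. Of 11 platelet genes 8 were listed and 2 tested, and the summed list ran from 131 to 166 in Emcn+/+ and from 125 to 143 in Emcn-/-, mostly from Gp1ba and Itga2b. The platelet chemokine gene Pf4 had 3.11, 5.56 and 22.9 in Emcn+/+ and 8.76, 8.30 and 14.8 in Emcn-/-, highest in replicate 3 of each. Of 12 neutrophil genes 10 were listed, and the granule genes S100a8, S100a9, Ngp, Camp, Ltf, Retnlg and Mpo had at most 3 reads in any library. Their sum, 114 to 289 in Emcn+/+ and 136 to 167 in Emcn-/-, came chiefly from Lcn2, which glia also express. Of 12 lymphocyte genes 8 were listed, with sums of 66.7 to 85.2 and 71.1 to 110, and the T cell genes Cd3d, Cd3e and Cd3g were not listed.

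Endothelial and pigment epithelial markers were read beside the globins. The summed endothelial list (12 of 12 listed) ran from 7256 to 7708 normalised reads in Emcn+/+ and from 5161 to 7436 in Emcn-/-, and it was 5161 to 7356 in the libraries titled 144 to 148 against 7436 and 7708 in the 2 others. Of its 12 genes 2 were positive and 10 negative for genotype, and 0 passed. The genotype median was -0.14, and it ranged from -0.31 to 0.10 with 1 library left out. For the title numbers 11 of the 12 had positive values (median 0.32) and 0 passed. Emcn-/- replicate 2 stood apart on this list, with a mean centred log2 value of -0.57 where the remaining 5 had 0.02 to 0.21. When it was left out the title-number median was 0.13, and the libraries titled 144 to 148 had sums of 7256 to 7356. Without Emcn-/- replicate 3 the title-number median was 0.12. The pigment epithelium list (15 of 15 listed) ran from 10899 to 15922 in Emcn+/+ and from 17159 to 21281 in Emcn-/-, with 14 of 14 tested genes positive for genotype (median 0.80) and 0 passing. A large part of these sums, 5740 to 8344 normalised reads over the libraries, came from Rlbp1, the most abundant gene of the list. For the title numbers Rlbp1 was at -0.30 ± 0.06 (limma adjusted p = 0.0503). The list sums overlapped between the title numbers (12343 and 19581 against 10899 to 21281), unlike the globins. The part of either list in the globin values was not tested.

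The genes closest to the globins across the 6 libraries were found by the root mean square difference between centred log2 values and the mean of the 4 globins, among 13550 genes. The closest was Socs3, a feedback inhibitor of cytokine signalling, at 0.195, with 79.9, 54.7 and 233 normalised reads in Emcn+/+ against 65.2, 90.2 and 157 in Emcn-/-. Tmem267 followed at 0.244, then Slc11a1, a metal transporter of phagocytes (0.290), Cmtm7 (0.293), the mitotic kinesin gene Kif14 (0.295), the proline synthesis gene Pycr1 (0.297), Lcp2, an adaptor of blood cell signalling (0.337), and the placental growth factor gene Pgf (0.345).

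The globins themselves lay 0.177 to 0.231 from their own mean, Alas2 lay 0.576 and Bpgm 0.691 from it, and the median gene 0.775. The log2 differences of the 8 genes between the title numbers, 0.95 to 1.46, follow from how they were chosen and were not read as a test. The measure rests on 6 libraries, 2 of which stand high.

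**Figure D5:**
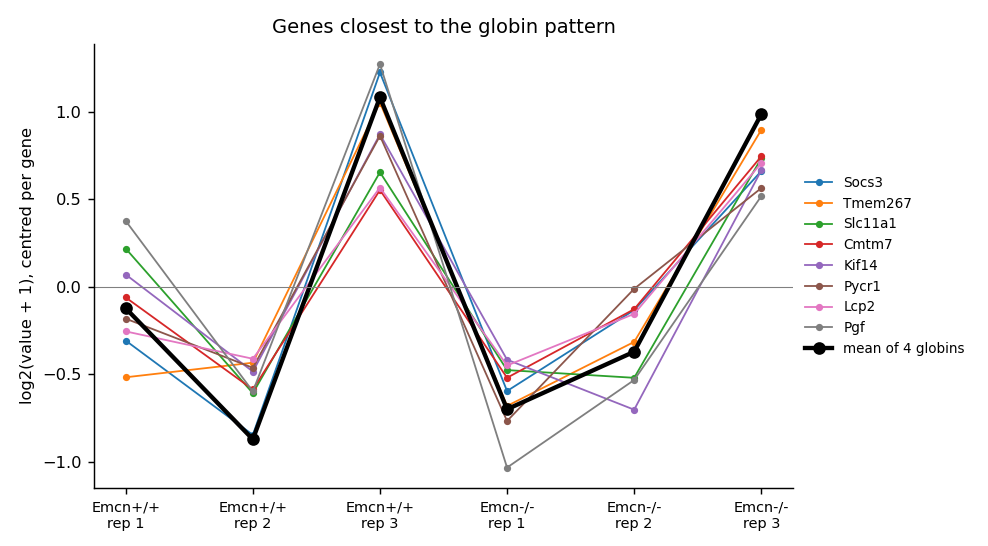
Log2(value + 1) of the 8 closest genes, centred per gene, in the 6 libraries, with the mean of the 4 globins in black. All 9 lines peak in replicate 3 of each genotype, at 1.08 and 0.98 for the globins.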

How the data were processed

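Per the labels' protocols, libraries were made from 1.3 µg of RNA by poly-A selection and random priming, and the labels name both directional and non-directional kits. GRCm38 is in the submitters' processing notes; no source here names an aligner, counter or annotation. The deposited values are a normalised signal (reads divided by 1 factor per library, unscaled for length). Dividing by that step gave whole reads, to 0.001 of a read, for 100% of values.

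Genotype was tested with limma 3.58.1 in R 4.3.3 (log2(value + 1), trended variance, no other term) over the 16681 genes that edgeR's low-count filter (minimum 10) kept, at a Benjamini-Hochberg adjusted p of 0.05. Alternatives were edgeR 4.0.16 and DESeq2 1.42.0 on recovered reads, other scalings, pseudocounts and filters, a title-number term, and each library left out. In simulated data for this contrast over 16681 genes, limma found 61.2% of changes of 1.5-fold, 80.6% of those of 2-fold and 93.9% of those of 4-fold, beside 12 false calls. The simulation held no difference between the title numbers. Its shares therefore do not hold for genes that differ there, the globins among them.

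Members and lists (14 lists, 139 of 159 symbols listed) were chosen with earlier results of these data known. The rule named the members, Emcn, a set of red cell genes, each list's most abundant gene and that of smallest p, and the 8 genes nearest the globins; other names were chosen after their values were seen or serve as sample checks. Some items are not reported here. Positions and lengths come from GENCODE M21 and promoters from RefSeq.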

Additional observations from a re-analysis of the deposited data

How the results depend on the processing

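Scaling (TMM, upper quartile), pseudocount (0.5, 5), filter, model and the title-number term left every globin's and Bpgm's genotype estimate on its side of 0 and uncalled; Alas2 turned to 0.064 with edgeR and 0.062 with DESeq2. Genes called between genotypes numbered 1, but 82 with DESeq2, no member among them. Leaving out 1 library gave 0 to 151 genes, with 0 when Emcn+/+ replicate 1, Emcn+/+ replicate 2 or Emcn-/- replicate 1 was absent and 151 without Emcn+/+ replicate 3. The genotype estimates then ranged from -0.76 to 0.11 for Hba-a1, -0.53 to 0.34 for Hba-a2, -0.20 to 0.98 for Hbb-bs, -0.77 to 0.47 for Hbb-bt, -0.53 to 0.15 for Alas2 and -0.024 to 0.093 for Bpgm, so each took both signs, none passed, and the cause was not tested. The log2 ratio of summed globins, 0.10, ranged from -0.41 to 0.65 and the alpha to beta difference, -0.54, from -0.79 to -0.42.

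Between the title numbers, a contrast added after seeing the data, 128 genes were called, 419 with DESeq2 and 1 to 407 with 1 library left out (1 without Emcn+/+ replicate 3, 2 without Emcn+/+ replicate 2, 6 without Emcn-/- replicate 1, 227 and 407 without Emcn-/- replicates 2 and 3). The estimates ranged from 1.11 to 1.46 for Hba-a1, 1.19 to 1.39 for Hba-a2, 1.59 to 1.93 for Hbb-bs, 1.61 to 2.09 for Hbb-bt and -0.10 to 1.35 for Alas2. Calls were lost for all 4 globins without Emcn+/+ replicate 3, and for all but Hbb-bs when Emcn+/+ replicate 2 or Emcn-/- replicate 1 was absent. Hba-a1 and Hbb-bt also lost theirs without Emcn-/- replicate 3. The other alternatives left the 4 calls in place. Fits that left out a title-186 or 188 library had 1 library in that series, assumed to vary like the rest. No paired analysis was possible because the replicate numbers were given in sample order and the labels pair no libraries. The title-number term, which groups replicate 3 of both genotypes, comes nearest to one, and it changed no member's genotype call. Hbb-bt and Alas2, with 21 and 24 reads in their lowest libraries, are limited by counting.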
